A study of Mus musculus with 6 samples.

Results

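Immune checkpoint ligands are proteins on or released from a cell that T cells, natural killer cells or macrophages read through receptors of their own, and that raise or restrain the response of those cells. In all, 10 genes of this kind were followed here, chosen by name among the 53465 genes of the count table: Cd80, Cd86, Cd274, Pdcd1lg2, Icosl, Cd276 and Vtcn1 of the B7 family, and Cd47, Pvr and Lgals9. All 10 had a row in the table. Cd80 was included because it had no counts in one of the groups, so its difference between the groups is described here without a test, and the other 9 genes were listed for their function.

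RNA was sequenced from 6 cell lines, each grown from a liver tumour of a C57BL/6 mouse, and by the series' design text the tumours came from different mice. The 3 lines labelled Myc_Utx (2A, 2B and 2D) came from tumours in which Kdm6a, also named Utx, had been disrupted, and the 3 lines labelled Myc_p53 (1, 2 and 3) from tumours in which p53 had been disrupted. In both groups a transposon that expresses Myc and a plasmid with Cas9 and a single guide RNA had been injected into the tail vein of adult female mice, so that hepatocytes took them up. Each line stands for 1 tumour, every line carries the Myc transgene, and no line with Myc alone was included, so that loss of Kdm6a and presence of p53 cannot be told apart in these comparisons. They had been passaged in culture until no other cell types were visible by eye, and the levels of macrophage genes are given with the results.

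CD80 and CD86, the classical B7 proteins, are made chiefly by dendritic cells, macrophages and B cells, and bind the costimulatory receptor CD28 and the inhibitory receptor CTLA4 on T cells. PD-L1, encoded by Cd274, and PD-L2, encoded by Pdcd1lg2, bind the inhibitory receptor PD-1, and PD-L1 is also made by many epithelial and tumour cells, mostly after interferon gamma signals through JAK1, JAK2 and IRF1. CD47 acts on macrophages through SIRPA as a signal against phagocytosis, PVR (CD155) binds TIGIT, CD226 and CD96 on T and natural killer cells, and galectin-9, encoded by Lgals9, binds TIM-3.

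Each library held between 4656103 and 6937497 counted reads. Kdm6a, the gene named by the Myc_Utx label, had 199, 244 and 220 counts in Myc_Utx lines 2A, 2B and 2D and 440, 348 and 298 in Myc_p53 lines 1, 2 and 3, a log2 fold change of -0.39 with a standard error of 0.22 (adjusted p = 0.243), and an edit by Cas9 need not lower the mRNA. The study's methods name Mll3 (Kmt2c) in place of Kdm6a for this experiment, whereas its results name Kdm6a. The study also reports indels in Kdm6a and loss of its protein in cell lines from tumours made with the Kdm6a guide. Kmt2c had 349, 411 and 389 counts in Myc_Utx and 939, 625 and 851 in Myc_p53 lines. It was lower in Myc_Utx lines, differing by -0.73 on the log2 scale (adjusted p = 0.0289). That call was lost with offsets for transcript length (-0.36, adjusted p = 0.196) and when any line other than Myc_p53 2 was left out (adjusted p from 0.0510 to 0.0992). Of 12 hepatocyte markers, the albumin gene Alb had at most 26 counts in any line, whereas Krt8 ranged from 0 in Myc_Utx 2D to 4537 counts in Myc_p53 1. The list summed to between 30.6 and 96.3 CPM in the Myc_Utx lines and to 1240, 78.6 and 845 CPM in Myc_p53 lines 1, 2 and 3, so that Myc_p53 2 lay within the range of the Myc_Utx lines. Most of the sum in Myc_p53 1 and 3 came from the keratin genes Krt8 (714 and 444 CPM) and Krt18 (469 and 313 CPM). In Myc_Utx 2D, most of the 47.6 CPM came from Fgb (44.1 CPM). Of the 5 list genes tested, 20.0% were lower, against 7.69% of all genes tested. The gene was Apob, an apolipoprotein gene, with 0, 6 and 1 counts in Myc_Utx and 88, 71 and 378 in Myc_p53 lines (adjusted p = 0.0240). Apob passed the filter on low counts only through the Myc_p53 lines, so that lower was the only call open to it. The number of list genes called was 0 without any 1 Myc_Utx line or Myc_p53 3, 2 without Myc_p53 1 and 3 without Myc_p53 2. Of 5 cholangiocyte markers, 3 were tested and 0 passed, with 1 log2 fold change below 0 and 2 above. Their keratin gene Krt19 had 234, 25 and 129 counts in Myc_Utx and 2088, 325 and 2468 in Myc_p53 lines (adjusted p = 0.0653). The cholangiocyte list summed to 698, 1430 and 508 CPM in Myc_Utx and to 1370, 152 and 1460 CPM in Myc_p53 lines. All 12 lymphocyte markers had at most 2 counts in any line, and 7 endothelial markers had at most 4. Among stellate cell and fibroblast markers, Col3a1, a fibrillar collagen gene, ranged from 65 to 14680 counts among the Myc_p53 lines. In Myc_Utx lines 2A, 2B and 2D it had 8677, 12288 and 11488. Of these 9 markers, 6 were tested and 0 passed, with 4 log2 fold changes below 0 and 2 above.

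The 250 bases before the RefSeq start of Cd80 (chr16:38458683-38458932, plus strand) and of Cd274 (chr19:29367188-29367437, plus strand) are printed from GRCm38.p6, 5′ to 3′, with CpG dinucleotides in capitals, because a CpG-rich start region is the usual form of a broadly used promoter. GENCODE M21 places the start of Cd80 at 38455561, before the printed window, so this window may not be where Cd80 begins.
Cd80: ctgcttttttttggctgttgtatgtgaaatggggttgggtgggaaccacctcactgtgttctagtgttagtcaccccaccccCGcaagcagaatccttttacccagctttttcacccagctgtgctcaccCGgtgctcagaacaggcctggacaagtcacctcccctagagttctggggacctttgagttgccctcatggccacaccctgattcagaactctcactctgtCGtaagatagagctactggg
Cd274: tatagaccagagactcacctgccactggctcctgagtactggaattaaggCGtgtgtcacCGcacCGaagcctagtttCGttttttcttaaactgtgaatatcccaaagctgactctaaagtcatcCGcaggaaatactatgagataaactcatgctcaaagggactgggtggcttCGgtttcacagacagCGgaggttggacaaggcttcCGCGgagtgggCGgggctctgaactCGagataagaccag
The Cd80 window held 3 CpGs and the Cd274 window 11. Windows of the same length were found for 8 of the 10 genes, and the median over 32851 windows of all genes was 6. Cd276 had 29 CpGs and the window of the first Cd47 start 30, and Icosl had 23, whereas Pdcd1lg2 and Lgals9 had 3 each and Vtcn1 had 5. By GENCODE M21, all 250 bases of the Cd276 window are exonic, with 66 in that of Icosl, 22 in Lgals9 and 21 in Cd47. Sequence matches were searched on both strands for NF-kB (GGG and TTTCC with 2 bases between), for the STAT element GAS (TTCNNNGAA), for the interferon-stimulated response element (GAAA and GAAA with 2 bases between) and for the E-box bound by MYC (CACGTG), of which 1.41%, 7.02%, 2.98% and 6.02% of all windows held a match. Only the Lgals9 window among the 8 genes held any, an interferon-stimulated response element match, and these letters were not in the windows of Cd80 and Cd274.

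Cd80 (ENSMUSG00000075122, on chromosome 16 of GRCm38 from 38458933 to 38486933, plus strand) had counts in Myc_Utx lines alone. It had 142 counts in line 2A, 140 in 2B and 31 in 2D, and 0 counts in each of the Myc_p53 lines. As CPM, the count scaled to the TMM-normalised library size, this was 28.2, 26.1 and 6.87 CPM, with a mean of 20.4 ± 11.7 (SD, n = 3). Lines 2A and 2B were close to each other, and 2A was 4.1-fold above 2D. Against a floor of 3 counts per library, the limit that a count of 0 allows, the level was at least 50.9-fold higher in 2A, 47.1-fold in 2B and 12.4-fold in 2D than in any Myc_p53 line, counting error only. Of 24221 genes with a count in any line, 4373 had 0 counts in the Myc_Utx lines and a count in a Myc_p53 line. Conversely, 1482 had 0 counts in the Myc_p53 lines and a count in a Myc_Utx line, 63 of them in every Myc_Utx line. Of the 1482 genes, Cd80 had the highest total in Myc_Utx lines, 313 counts, ahead of Ntrk3 with 210. These are the values Cd80 was chosen on.

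**Figure D1:**
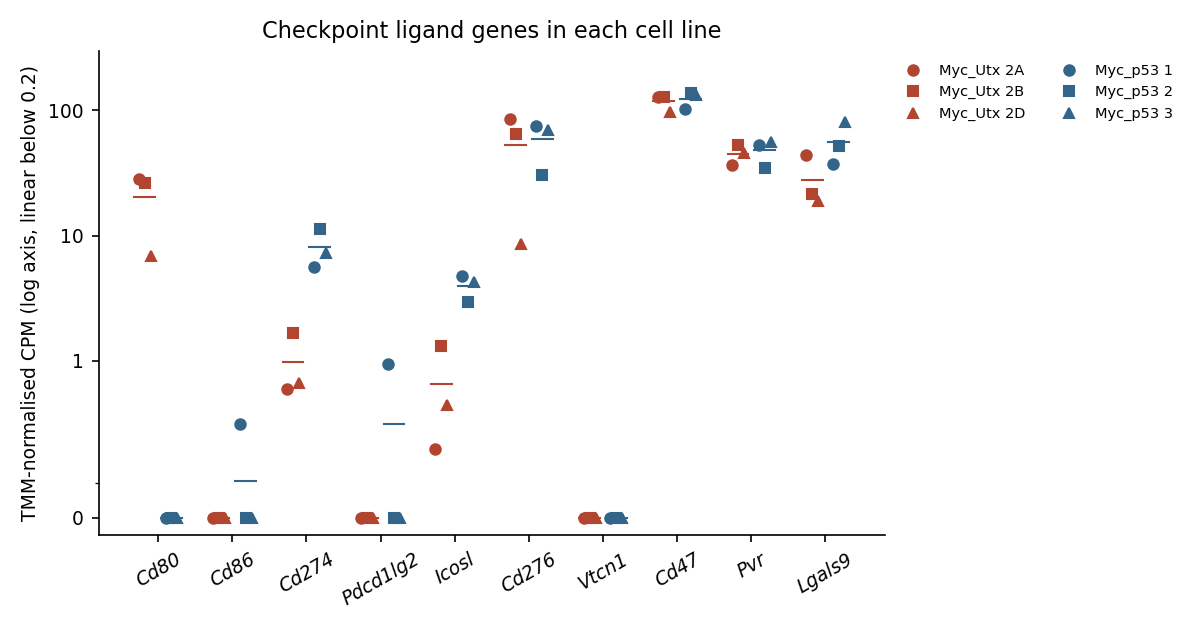
Level of each of the 10 genes in TMM-normalised CPM on a log axis that is linear below 0.2, with a point for each cell line (red, Myc_Utx; blue, Myc_p53) and a bar at the group mean. Cd80 is above 0 in red points alone, Cd274 and Icosl are higher in all blue than in all red points, and Cd47 and Pvr overlap.

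The 5 genes most like Cd80 over the 6 lines, by Pearson's r of log2(CPM + 1) searched over genes whose mean count reached 50, were Sobp (r = 0.999), Pomgnt1 (0.998), Btg2 (0.998), Abcb1b (0.997) and Zfp146 (0.995). Sobp had 39.5, 34.1 and 7.76 CPM in Myc_Utx lines 2A, 2B and 2D, and at most 0.157 CPM in a Myc_p53 line. Btg2, which encodes an antiproliferative factor, had 119.9, 110.3 and 71.4 CPM against 33.3 to 36.9 in Myc_p53 lines, so it shared the order of the lines but not the absence. With 6 points in 2 separate groups, such values describe a shared pattern and carry no test.

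Of the 11 genes within 250 kb of Cd80 on chromosome 16 with at least 10 counts in all, 8 were tested. Of these, 1 was higher and 1 lower in Myc_Utx lines, where 6.99% of all genes tested were higher and 7.69% lower. The nearest tested neighbours were Adprh, 6.24 kb before Cd80, with a log2 fold change of 0.28 (adjusted p = 0.241), and Timmdc1, 11.4 kb after it, with 0.18 (adjusted p = 0.506). Poglut1, which encodes a protein O-glucosyltransferase and lies 38.2 kb after Cd80, was higher by 0.88 on the log2 scale (adjusted p = 0.0268). Pla1a, a phospholipase gene 25.8 kb before Cd80, was lower, with a log2 fold change of -3.37 (adjusted p = 0.0269). Its counts were 2, 8 and 4 in Myc_Utx and 65, 23 and 105 in Myc_p53 lines. Pla1a passed the filter on low counts only through the Myc_p53 lines, so that lower was the only call open to it. The tested genes around Cd80 thus lay on both sides of 0, with a median log2 fold change of -0.04, against -0.01 over all genes tested. The table gives Cd80 a shorter model than GENCODE M21 does (38458933 to 38486933, against 38455561 to 38496335), and reads outside the shorter model do not enter these counts.

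Cd86 and Vtcn1, and with them Pdcd1lg2, were at or near 0 in all lines. Cd86, the close relative of Cd80, had 2 counts in Myc_p53 line 1 and 0 in the other 5 lines. Pdcd1lg2 had 6 counts in Myc_p53 line 1 and 0 in the rest. Vtcn1, which encodes the inhibitory ligand B7-H4, had 0 in all 6. Line 1 of Myc_p53 was thus the only source of reads for Cd86 and Pdcd1lg2. These 3 genes did not pass the filter on low counts, and a difference between the groups was not detectable at this depth.

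The remaining 6 genes and Cd80 passed that filter and entered the edgeR quasi-likelihood test over 11510 genes. Of the 6, Cd274 and Icosl passed an adjusted p of 0.05, 0 higher and 2 lower in Myc_Utx lines, where 14.7% of all genes tested passed, 7.69% as lower and 6.99% as higher. The groups did not overlap for the same 2 genes, as was the case for 42.0% of all genes tested (20.9% lower and 21.1% higher). Cd274 and Icosl passed the filter only through the Myc_p53 lines, where they were high, so their number is no evidence about the group of genes.

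Cd274 (ENSMUSG00000016496, chromosome 19, 29367455 to 29388095, plus strand), encoding PD-L1, was lower in every Myc_Utx line. It lies 22.8 kb before Pdcd1lg2 on the same strand. It had 3, 9 and 3 counts in lines 2A, 2B and 2D, and 36, 61 and 51 in Myc_p53 lines 1, 2 and 3. In CPM the means were 0.979 ± 0.606 (SD, n = 3) in Myc_Utx and 8.05 ± 2.88 (SD, n = 3) in Myc_p53 lines. The highest Myc_Utx line, 2B, was below the lowest Myc_p53 line. In RNA of whole cultures, fewer cells of a type and less RNA per cell cannot be told apart. In the fit, Myc_Utx lines differed by -2.99 on the log2 scale (standard error 0.52, 95% confidence interval -4.24 to -1.74, adjusted p = 0.0211), a level 7.96-fold higher in Myc_p53 lines, and lines 2A and 2D were at the floor of 3 counts. Leaving out 1 line moved the adjusted p past 0.05 for each Myc_Utx line (0.0797 without 2A, 0.0568 without 2B and 0.0911 without 2D) and for Myc_p53 line 3 (0.0639), while the log2 fold change stayed between -3.61 and -2.67.

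Icosl (ENSMUSG00000000732, chromosome 10, 78069302 to 78083913, plus strand), encoding the ligand of the T cell costimulator ICOS, was lower as well. It had 1, 7 and 2 counts in Myc_Utx lines 2A, 2B and 2D against 30, 16 and 30 in Myc_p53 lines 1, 2 and 3. Its means were 0.649 ± 0.581 CPM (SD, n = 3) and 3.98 ± 0.916 CPM (SD, n = 3), and the groups did not overlap. In the fit they differed by -2.55 on the log2 scale (standard error 0.62, 95% confidence interval -4.04 to -1.07, adjusted p = 0.0429). The call is close to the threshold: it was lost without the filter on low counts (adjusted p = 0.0588) and without any single line (0.110 without Myc_Utx 2A, 0.0638 without 2B, 0.150 without 2D, 0.0909 without Myc_p53 1, 0.0525 without 2 and 0.116 without 3). For Cd274 and Icosl an exact permutation test gave a two-sided p of 0.1, the smallest that 3 lines against 3 allow.

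**Figure D2:**
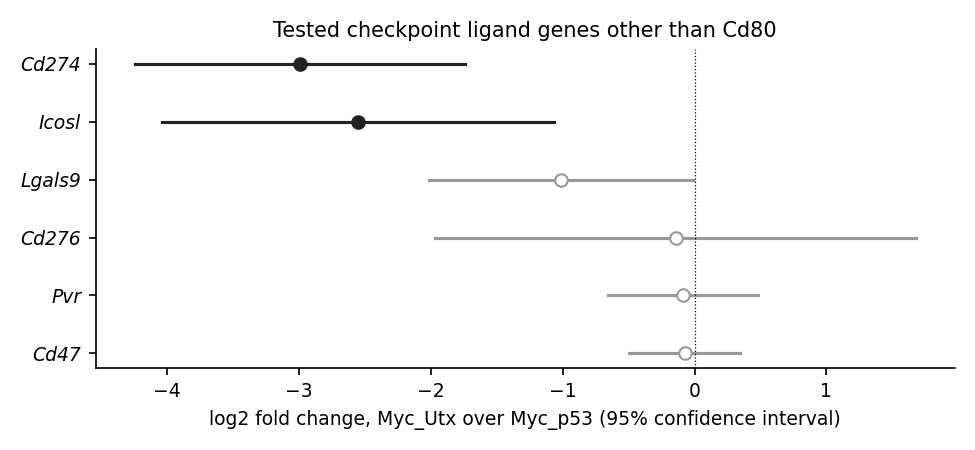
Log2 fold change of Myc_Utx over Myc_p53 lines with its 95% confidence interval for the 6 tested genes other than Cd80, filled where the adjusted p was under 0.05. Cd274 (-2.99) and Icosl (-2.55) lie below 0 with their whole intervals and are filled, and the other 4 are open.

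The other 4 tested genes did not pass the threshold. Lgals9 had 220, 115 and 85 counts in Myc_Utx lines 2A, 2B and 2D and 237, 281 and 565 in Myc_p53 lines 1, 2 and 3. Its groups overlapped in CPM, since Myc_Utx 2A (43.7 CPM) was above Myc_p53 1 (37.3 CPM), and the fitted difference of -1.01 on the log2 scale had a standard error of 0.42 (adjusted p = 0.140). Cd47 was the most even of the members. It had 651, 689 and 437 counts against 652, 753 and 930, or 118.2 ± 18.4 CPM (SD, n = 3) against 124.5 ± 19.3 CPM (SD, n = 3). Its log2 fold change of -0.07 had a 95% confidence interval from -0.49 to 0.34, so that a change beyond either end is outside the interval (adjusted p = 0.785).

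Pvr had 185, 283 and 207 counts in Myc_Utx lines and 337, 187 and 396 in Myc_p53 lines, with means of 45.1 ± 8.04 CPM (SD, n = 3) and 47.9 ± 11.7 CPM (SD, n = 3). Its log2 fold change was -0.09, with an interval from -0.66 to 0.48 (adjusted p = 0.817). Cd276, which encodes B7-H3 and is made by many solid tumours, varied widely within each group. It had 433, 349 and 39 counts in Myc_Utx lines 2A, 2B and 2D and 482, 164 and 496 in Myc_p53 lines 1, 2 and 3, a 9.94-fold range among the former and a 2.51-fold range among the latter. Its log2 fold change was -0.14, and the interval from -1.96 to 1.68 leaves room for a change in either direction (adjusted p = 0.908). Line 2D was thus the lowest Myc_Utx line for Cd80, Cd276, Cd47 and Lgals9, but not for Pvr, Cd274 or Icosl.

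Levels can be set side by side between genes only per transcript length, here as CPM per kb of the table's length. In Myc_p53 lines the order of the means was Lgals9 (26.4), Cd47 (23.6), Cd276 (16.1), Pvr (7.82), Cd274 (2.22) and Icosl (0.861), with Pdcd1lg2, Cd86, Cd80 and Vtcn1 below these. Among the first 4, each overlapped with the next over the 3 lines, and Cd274 was below all of them and above Icosl in every line. In Myc_Utx lines the order was Cd47 (22.4), Cd276 (14.6), Lgals9 (13.1), Cd80 (12.0), Pvr (7.37), Cd274 (0.270) and Icosl (0.140), and every neighbour in this order overlapped with the next except Pvr and Cd274. Among the 10 genes, the Cd80 mean in Myc_Utx lines therefore stood between those of Lgals9 and Pvr, with a range from 4.04 to 16.6 CPM per kb. Of the 20 further ligand genes described below, Lgals3 (141.6) and Cd24a (111.0) had far higher means in these lines, and the rest had lower ones. The length used for Cd80, 1701 bases, is shorter than the 3703 bases of its GENCODE M21 model. Reads of Pvr and Cd276 can include reads of antisense genes that overlap them, which had at most 17 counts in a line.

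**Figure D3:**
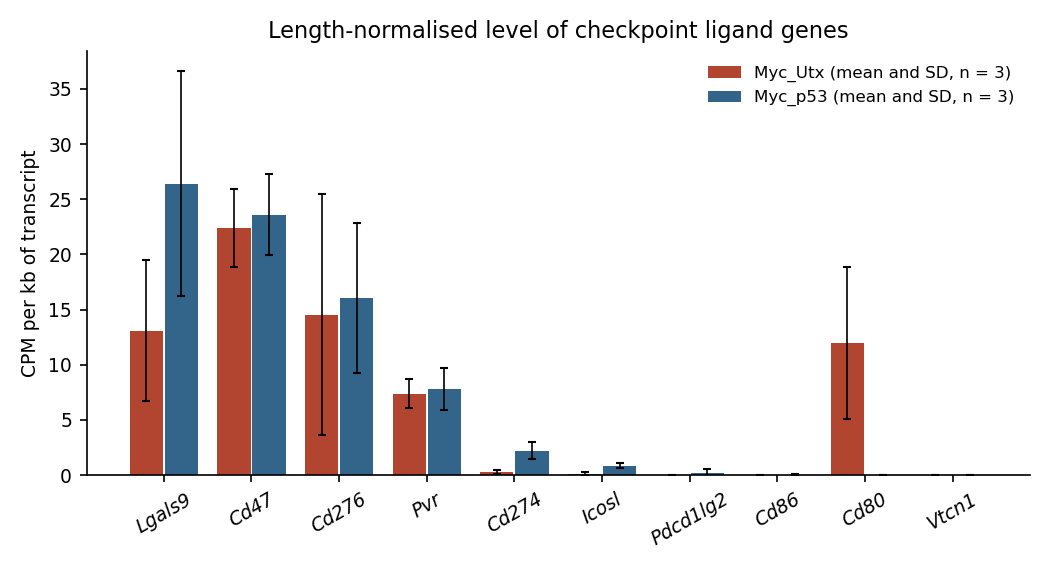
Mean CPM per kb of transcript with its SD (n = 3 lines per group) for each gene, ordered by the Myc_p53 mean. Cd80 has a red bar alone (12.0 in Myc_Utx lines), Lgals9 and Cd47 have the tallest bars in Myc_p53 lines, and Cd274 and Icosl stand near the axis in Myc_Utx lines.

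The receptors of these ligands were mostly low. Of 9 receptor genes, 5 had at most 3 counts in every line, and 1 passed the filter. That gene, Sirpa, which encodes the CD47 receptor of macrophages, had 10, 1 and 0 counts in Myc_Utx lines and 203, 122 and 107 in Myc_p53 lines. It was lower in Myc_Utx lines, differing by -4.94 on the log2 scale with a standard error of 0.97 (adjusted p = 0.0274). The adjusted p was over 0.05 without Myc_Utx 2A (0.0614), 2B (0.0872) or 2D (0.0781) and without Myc_p53 1 (0.0585) or 3 (0.0687). The ligand Cd47 thus had like levels in the groups in which the levels of its receptor gene differed.

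Among 20 further ligand genes, 6 were tested, and 1 was lower and 1 higher in Myc_Utx lines, 16.7% each way. Of all genes tested, 7.69% were lower and 6.99% higher. The 6 genes had a median log2 fold change of 0.32, against -0.01 over all genes tested, with 2 below 0 and 4 above. Nectin2 (CD112), which shares the receptors TIGIT and CD226 with PVR, had 40, 45 and 35 counts in Myc_Utx and 266, 175 and 471 in Myc_p53 lines, a log2 difference of -2.55 with a standard error of 0.30 (adjusted p = 0.0141). The related Nectin3, an adhesion molecule, had 179, 204 and 170 counts against 104, 131 and 115, and was higher by 0.97 on the log2 scale (standard error 0.21, adjusted p = 0.0318). The 3 nectin family genes Pvr, Nectin2 and Nectin3 hence did not move together. Raet1e, a ligand of the natural killer receptor NKG2D, had 56, 21 and 45 counts against 15, 16 and 15 and an adjusted p of 0.0513. Lgals3 and Cd24a had adjusted p of 0.612 and 0.203. For Nectin2 the adjusted p was 0.0630, 0.0568 and 0.0608 without Myc_Utx 2A, 2B and 2D, and for Nectin3 it was over 0.05 without any of these (0.0868, 0.0974 and 0.105) and without Myc_p53 1 (0.0658) or 3 (0.0922).

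The list of 22 genes known to act on PD-L1 and the B7 genes, through interferon gamma, JAK-STAT and NF-kB signalling or through protein stability, was measured next. Of these, 21 were tested, 4 were lower and 0 higher in Myc_Utx lines, 19.0% lower against 7.69% of all genes, and 18 had a log2 fold change below 0, with a median of -0.53 against -0.01 over all genes tested. Ifngr1, a chain of the interferon gamma receptor, had 165, 170 and 129 counts in Myc_Utx and 326, 297 and 569 in Myc_p53 lines (log2 fold change -1.01, adjusted p = 0.0308). The kinase gene Jak2, which lies 54.4 kb before Cd274 on chromosome 19, had 202, 141 and 117 counts against 375, 301 and 486 (log2 fold change -0.99, adjusted p = 0.0345). Jak1 had 693, 757 and 663 counts against 1216, 1564 and 1595 (log2 fold change -0.73, adjusted p = 0.0363), and its call was lost with offsets for transcript length (adjusted p = 0.0754). None of these 3 genes overlapped between the groups in CPM, as was the case for 42.0% of all genes tested (20.9% lower and 21.1% higher).

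Irf1, the transcription factor that acts on the Cd274 promoter after interferon gamma, had 143, 121 and 96 counts against 260, 352 and 514, a log2 difference of -1.31 with a standard error of 0.26 (adjusted p = 0.0272). The other receptor chain, Ifngr2, had 165, 174 and 130 counts against 167, 152 and 329, and differed by -0.10 on the log2 scale (adjusted p = 0.792). Cmtm6, whose protein holds PD-L1 at the cell surface, had 170, 201 and 116 counts against 391, 247 and 414 and an adjusted p of 0.0509. Among the NF-kB genes, Rela (-0.54, adjusted p = 0.0515), Nfkb1 (-0.49, adjusted p = 0.203) and Nfkbia (-0.92, adjusted p = 0.0509) did not pass. The 4 calls were lost when any 1 Myc_Utx line or Myc_p53 3 was left out, where 0 genes of the list passed, and that of Jak2 also without Myc_p53 1 (adjusted p = 0.0639). Of the list, 8 genes passed without Myc_p53 2, 7 with the size factors of DESeq2 or with total counts only, and 9 with DESeq2 and with at least 10 counts in every line.

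**Figure D4:**
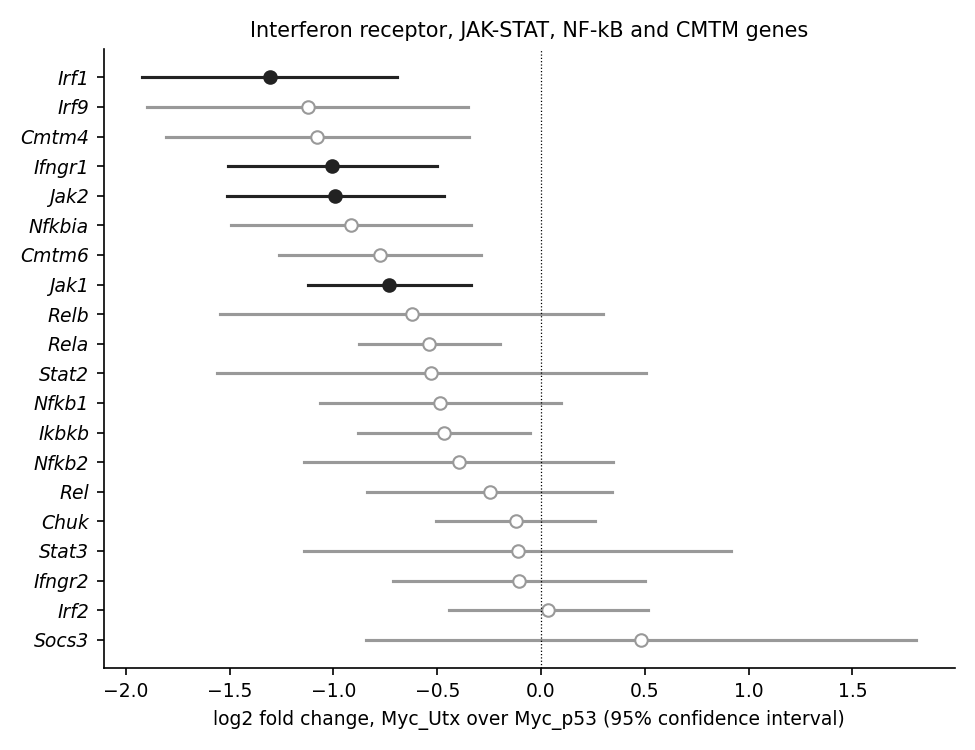
Log2 fold change of Myc_Utx over Myc_p53 lines with its 95% confidence interval for 20 of the tested regulator genes, filled where the adjusted p was under 0.05. Irf1, Ifngr1, Jak2 and Jak1 are filled and below 0, and Irf2 and Socs3 lie above 0 with intervals that cross it.

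Most tested macrophage genes were lower in Myc_Utx lines, like Cd274, Icosl and Sirpa, but the most abundant, Cd14, was higher. Of 24 macrophage and dendritic cell markers, 9 were tested, and 7 of them were lower (Lyz2, Csf1r, Mpeg1, C1qa, C1qb, C1qc and Laptm5), 77.8% against 7.69% of all genes tested. These 7 genes and Sirpa had at most 10 counts in a Myc_Utx line and passed the filter on low counts only through the Myc_p53 lines, so that lower was the only call open to them and their number is no support for a direction. Cd14, which encodes a receptor for lipopolysaccharide, had 267, 183 and 145 counts in Myc_Utx against 122, 102 and 152 in Myc_p53 lines, and was higher in each Myc_Utx line in CPM (adjusted p = 0.0399), a call lost with offsets for transcript length and with any 1 line left out. The number of list genes called, 8, was 0 without Myc_Utx 2A, without 2D or without Myc_p53 3, 1 without Myc_Utx 2B and 5 without Myc_p53 1, and with a minimum of 10 counts in every line only Cd14 was called among 2 genes tested. Summed over the list without Cd14, the level was 3.97, 10.2 and 5.98 CPM in Myc_Utx lines 2A, 2B and 2D and 117, 50.6 and 130 CPM in Myc_p53 lines 1, 2 and 3. With Cd14 it was 38.1 to 57.0 CPM against 69.4 to 151 CPM. The general leucocyte marker Ptprc had at most 3 counts in any line, Itgam at most 3, and Clec4f and Timd4 had 0, while Lyz2 reached 337 counts in Myc_p53 line 3. Of 8 genes for MHC class II presentation, 5 had at most 3 counts in every line. Ctss alone was tested, again through the Myc_p53 lines, and was lower in Myc_Utx lines (adjusted p = 0.0242). That call was lost when any 1 Myc_Utx line was left out, and Ctss was not tested without Myc_p53 1 or 3. Within the Myc_p53 group, line 2 had the lowest summed macrophage level and the highest Cd274 level (11.3 CPM, against 5.66 and 7.24), whereas Icosl was lowest in that line (2.95 CPM, against 4.72 and 4.26). The part of these genes in the levels of Cd274, Icosl and Sirpa was not tested.

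**Figure D5:**
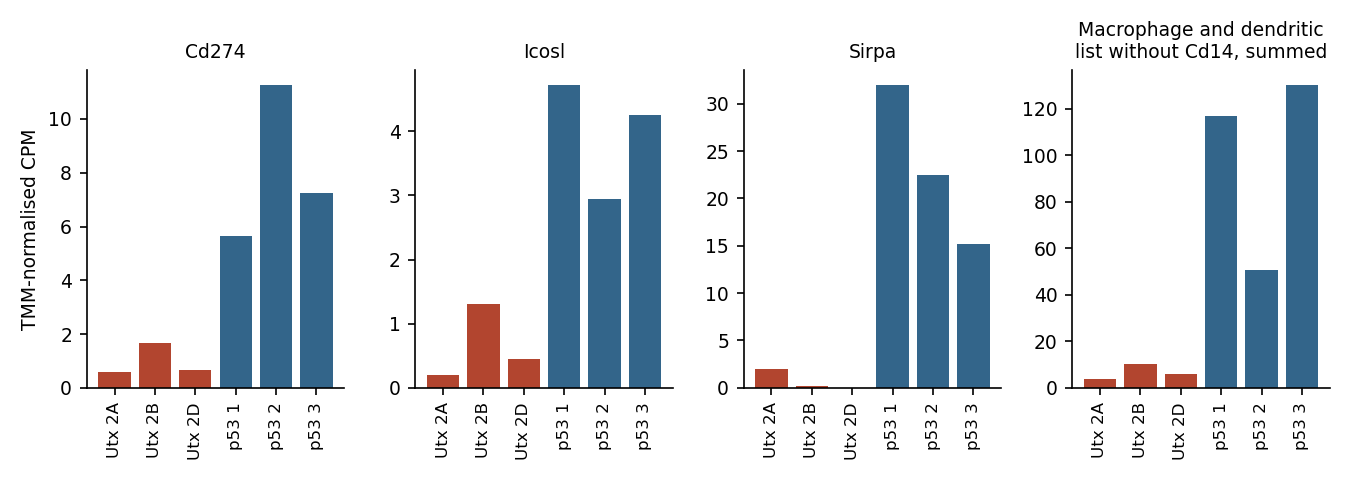
Level in CPM of Cd274, Icosl, Sirpa and the macrophage and dendritic cell list without Cd14, summed, with a bar for each cell line (red, Myc_Utx; blue, Myc_p53). Each measure is higher in all 3 Myc_p53 lines, and Myc_p53 line 2 has the tallest Cd274 bar (11.3 CPM) and the shortest bar of the group for the list (50.6 CPM).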

How the data were processed

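RNA-seq counts of 3 Myc_Utx and 3 Myc_p53 cell lines were analysed, with groups taken from the sample labels. The deposited values are raw counts for each Ensembl gene, in a table that also holds a transcript length in bases and a column of gene ontology terms. The processing notes name Trimmomatic 0.36, STAR 2.5.3a, featureCounts 1.6.3, DESeq2 1.20.0 and GRCm38, whereas the methods of the paper name HTSeq and a human genome build. Coordinates of 7 of the 10 genes equalled GENCODE M21 (GRCm38), and strand use in counting is not given in the sources used here. Promoter windows are from RefSeq (GRCm38.p6).

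Genes were tested with the quasi-likelihood F test of edgeR 4.0.16 (R 4.3.3) after filterByExpr (minimum count 10) and TMM normalisation, with Benjamini-Hochberg adjustment over all genes tested. DESeq2 1.42.0 was an alternative. Standard errors were derived from F. Intervals are at 95%. A count of 0 allows up to 3 counts. Permutation tests used SciPy 1.17.1. The genes and lists were chosen with earlier results of these data known. Genes were named from the 10 ligands, Kdm6a and Kmt2c, the list genes past the threshold (or, in a list without any, the 4 highest in mean count), the neighbours of Cd80 and the 5 genes most like it. In some lists without a gene past the threshold, fewer than these 4 were named. Other list genes and Ntrk3 were named after their values were seen. Among these list genes were Ifngr2, Cmtm6, Rela, Nfkb1, Nfkbia, Irf2, Socs3, Raet1e, Lgals3, Cd24a, Alb, Krt8, Krt18 and Fgb. Some results are not reported here. By the design text, the lines of a group are from different mice, and precision is limited by 3 lines per group.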

Additional observations from a re-analysis of the deposited data

How the results depend on the processing

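No paired analysis was possible because no replicate number occurs in both groups. The alternatives were DESeq2 size factors, total counts only, omission of the low-count filter, a minimum of 10 counts in every line, offsets for transcript length, DESeq2, and each line left out in turn. The number of genes past the adjusted p was 1690 (805 higher and 885 lower, 47.6% higher), 2782 with DESeq2 and from 4 to 1953 with a line left out, and the share of higher genes was 38.4% with total counts. The number of the 6 genes called was 2. It was 1 without the low-count filter, 0 with a minimum of 10 counts in every line, where Cd274 and Icosl were not tested, and from 0 to 1 with a line left out. Except for these 2 counts, the cause was not tested. The Myc_Utx mean of Cd80 was 20.0 CPM with total counts and from 16.5 to 27.1 CPM with a line left out. Cd274, Icosl and Lgals9 kept their direction in all alternatives in which they were tested. The sign of the genes near 0 changed. Cd276 ranged from -0.65 to 0.38 over the lines left out, and was at 0.38 without Myc_Utx 2D, 0.0778 without Myc_p53 1 and 0.00217 without Myc_p53 3 on the log2 scale. Cd47 ranged from -0.20 to 0.07, and was at 0.00025 with length offsets, 0.0673 without Myc_Utx 2D and 0.0150 without Myc_p53 2. Pvr ranged from -0.27 to 0.06, and was at 0.0321 with length offsets, 0.0608 without Myc_Utx 2A and 0.0364 without Myc_p53 3. At 4656103 to 6937497 reads per library, genes with at most 3 counts in a group give bounds only.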

Other observations

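The line with the lowest Cd276 level in each group was also the one with the lowest Krt8 level. In Myc_Utx lines 2A, 2B and 2D, Cd276 had 433, 349 and 39 counts and the keratin gene Krt8 had 61, 200 and 0. In Myc_p53 lines 1, 2 and 3, Cd276 had 482, 164 and 496 counts and Krt8 had 4537, 83 and 3130. The pattern was noticed after the values had been seen and was not tested. Of the 10 genes, 6 carry the term external side of plasma membrane in the deposited table (Cd80, Cd86, Cd274, Icosl, Cd276 and Vtcn1), which 0.696% of all its genes carry. The 10 genes were chosen by name as ligands, so this share follows from that choice and is no result of the counts.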
